A study of Homo sapiens with 8 samples.

Results

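The genes described here encode the nuclear subunits of the mitochondrial respiratory chain and ATP synthase, together with cytochrome c (CYCS) and the coactivator PPARGC1A. They were chosen by gene symbol from the protein-coding genes of the table, without read-through genes, and number 84 of 18478 genes. Complex I (NADH dehydrogenase) accounts for 36 of them, complex II (succinate dehydrogenase) for 4, complex III for 10, complex IV (cytochrome c oxidase) for 14 and complex V (ATP synthase) for 18. In all, 87 symbols of the reference meet the rule, and COX4I2, COX6A2 and COX7B2 were not analysed here. The cytochrome c oxidase subunit long called NDUFA4 has the symbol COXFA4 in the reference and so falls outside the rule. Its RPKM was 68.98 with ATF3 and 65.46 in the control in A2058, and 55.16 and 57.91 in C8161.

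The series compared 2 established human melanoma cell lines, A2058 and C8161, each transduced with a retrovirus that carries ATF3 or with its neomycin control. ATF3 is a stress-induced transcription factor of the ATF/CREB family, whose members bind the cyclic AMP response element and related sequences. The culture medium was the same for all cells, DMEM with 10% fetal bovine serum and antibiotics, and total RNA was sequenced. There were 8 libraries, 1 per arm in A2058 and 3 per arm in C8161. The labels say nothing of clones, selection or separate transductions, and name no promoter for the introduced gene. Expression is given as RPKM, a read number scaled to transcript length and library size. Because each C8161 arm has 1 combined column and each A2058 arm 1 library, no comparison has a replicate spread. The differences below therefore describe 4 columns of values, without a test. In RNA from a whole culture, fewer cells with a transcript and less of it per cell cannot be told apart.

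The respiratory chain passes electrons from NADH and succinate through complexes I to IV to oxygen and pumps protons out of the mitochondrial matrix, and complex V uses the returning protons to make ATP. Most subunits are encoded in the nucleus, while a core set is encoded by mitochondrial DNA. Transcription of the nuclear genes is known to depend on NRF1, GABP (also called NRF2), YY1 and estrogen-related receptors, with PPARGC1A (PGC-1α) as a coactivator. In melanoma, PPARGC1A is known as a target of MITF, the lineage factor of melanocytes, and marks a state with high oxidative metabolism.

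The introduced gene was checked first. ATF3 stood at 62.57 RPKM in C8161 with ATF3 and 4.76 in its control, and at 4.71 RPKM in A2058 with ATF3 and 1.22 in its control. The columns labelled ATF3 were thus higher in both lines, by 13.1-fold in C8161 and 3.86-fold in A2058. The A2058 column with ATF3 was close to the level of the C8161 control. Of 12 melanoma and neural crest markers, 12 reached 1 RPKM in both A2058 columns, against 3 in C8161 with ATF3 and 2 in C8161 control, with summed levels of 1911.36 and 1860.39 RPKM in A2058 and 298.93 and 285.02 in C8161 (ATF3 first). In C8161 SOX10 was at 0.05 and 0.06 RPKM and TYR at 0, while AXL was at 293.63 and 279.65 RPKM. C8161, although labelled melanoma, thus had the defining pigment-lineage transcripts at or near 0. The keratin KRT18 reached 655.54 RPKM with ATF3 and 722.71 in the control there, against 81.54 and 75.37 in A2058. It was the only 1 of 5 epithelial and keratinocyte markers to reach 1 RPKM in any column. The endothelial marker TIE1 was at 62.77 and 67.2 RPKM in C8161, against 1.45 in both A2058 columns. Of 5 endothelial markers, 2 reached 1 RPKM in each C8161 column and 1 in each A2058 column.

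Motifs for the known regulators were looked up in promoter windows, to show what the members share in sequence. RefSeq windows of GRCh38.p14, from 250 bases before to 50 bases after a start, were listed for 68 of the 84 members, and both strands were searched for exact matches. The NRF1 core GCGCATGCG was present in 11 of the 68 (16.2%), against 3.11% of the 15843 protein-coding genes with a window. The GABP motif CCGGAAGT was found in 12 (17.6%, against 6.97%) and the YY1 motif AAGATGGCG in 9 (13.2%, against 3.21%). At least 1 of these 3 motifs stood in 28 of the 68 members (41.2%), against 12.3% of all genes. These shares describe letters in a window and not binding.

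Windows of 280 bases, cut 30 bases after the start, are shown for 3 members that carry such motifs and that recur below. NDUFS7, with the lowest ratio in C8161, lies on chromosome 19 (chr19:1383657-1383936, + strand). SDHD (chr11:112086623-112086902, + strand) and ATP5PF (chr21:25734875-25735154, - strand) are among the lowest in A2058. Capitals mark matches on either strand: NRF1 then YY1 in NDUFS7, NRF1 then GABP in SDHD, YY1 then GABP in ATP5PF, for which another listed window holds an NRF1 match.
NDUFS7: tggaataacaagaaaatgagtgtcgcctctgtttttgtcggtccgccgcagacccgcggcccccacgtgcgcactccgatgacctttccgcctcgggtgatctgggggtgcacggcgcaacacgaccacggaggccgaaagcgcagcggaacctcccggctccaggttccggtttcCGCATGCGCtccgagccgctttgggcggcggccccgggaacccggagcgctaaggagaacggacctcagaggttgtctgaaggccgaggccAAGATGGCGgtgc
SDHD: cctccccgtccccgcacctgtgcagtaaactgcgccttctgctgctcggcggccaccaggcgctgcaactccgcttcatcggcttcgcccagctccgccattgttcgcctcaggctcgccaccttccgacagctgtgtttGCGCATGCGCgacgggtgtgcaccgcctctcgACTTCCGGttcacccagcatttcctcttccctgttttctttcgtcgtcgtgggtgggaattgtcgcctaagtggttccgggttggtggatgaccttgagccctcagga
ATP5PF: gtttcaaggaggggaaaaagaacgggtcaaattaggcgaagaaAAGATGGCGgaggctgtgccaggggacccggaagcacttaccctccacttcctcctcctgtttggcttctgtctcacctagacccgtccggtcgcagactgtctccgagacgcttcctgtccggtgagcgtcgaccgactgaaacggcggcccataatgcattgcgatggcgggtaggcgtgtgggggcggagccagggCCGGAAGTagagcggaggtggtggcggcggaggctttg

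The full cyclic AMP response element, TGACGTCA, is the palindrome to which ATF/CREB factors are known to bind. It was present in the windows of 5 of 68 members (7.35%), against 475 of the 15843 genes. The 5 sites are shown with 15 bases on each side and the element in capitals. Inexact forms of the element and sites outside the windows were not searched for, and binding was not measured. Relative to the start, the element begins at -57 in ATP5MC1 (chr17:48892715-48892752, + strand), at -158 in ATP5ME (chr4:674412-674449, - strand) and at -48 in NDUFA10 (chr2:240025368-240025405, - strand). In NDUFB2 (chr7:140696640-140696677, + strand) it begins at -53 and in SDHB (chr1:17054014-17054051, - strand) at -4.
ATP5MC1: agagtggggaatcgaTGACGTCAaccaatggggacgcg
ATP5ME: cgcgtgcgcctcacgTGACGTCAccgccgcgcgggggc
NDUFA10: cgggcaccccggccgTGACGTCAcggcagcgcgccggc
NDUFB2: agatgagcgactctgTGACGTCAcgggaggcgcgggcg
SDHB: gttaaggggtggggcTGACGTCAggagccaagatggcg

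With ATF3 against control, the log2 ratios of these 5 genes in C8161 were -0.07 for ATP5MC1, 0.08 for ATP5ME, 0.05 for NDUFA10, -0.18 for NDUFB2 and -0.15 for SDHB. In A2058 they were 0.06, 0.02, 0.12, 0.04 and 0.13 in the same order. A log2 ratio here is the difference of log2(RPKM + 1), which understates changes of low genes, the more so the lower their level. The median over the 5 was -0.07 in C8161, against -0.10 for the members without the element, and 0.06 in A2058, against 0.02. The AP-1 motif TGANTCA was found in 3 members (4.41%, against 8.04% of all genes), and the CARE motif TGATGCAA in 0 members, against 0.903% of all genes.

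The respiratory chain was transcribed at high levels in all 4 columns. Of the 84 members, 78 reached at least 1 RPKM in every column, and their median level was 101.6 RPKM with ATF3 and 100.2 in the control in A2058, and 91.9 and 99.4 in C8161. Together the members took 2.34% and 2.32% of the column sums in A2058, and 1.82% and 1.92% in C8161. The share was lower in C8161 than in A2058 and differed less between the arms of a line. Complex I held 0.748% of the A2058 control sum and 0.576% of the C8161 control sum, complex V 0.685% and 0.571%, complex IV 0.538% and 0.496%, complex III 0.268% and 0.201%, and complex II 0.0701% and 0.0603%. The order of the complexes was thus the same in both control columns.

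**Figure D1:**
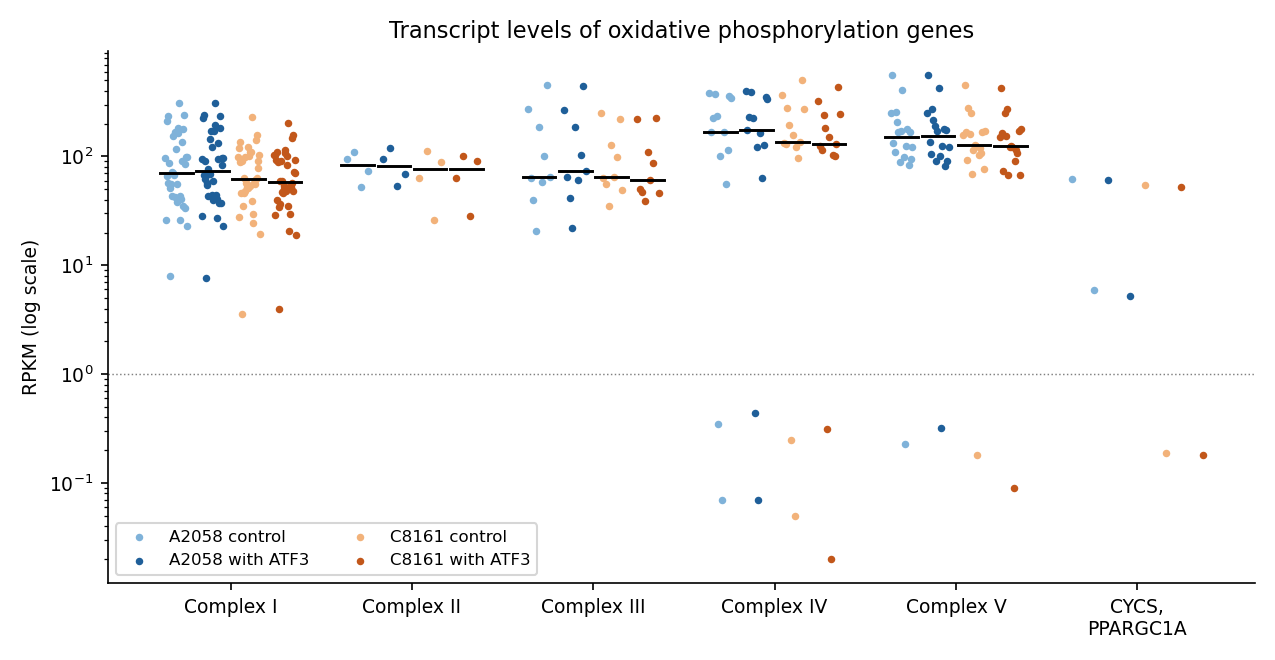
RPKM of each member above 0 in every column (log scale), by complex and column, with black bars at the median of each complex and a dotted line at 1 RPKM. Most members lie above 10 RPKM, and PPARGC1A is above 1 RPKM in A2058 and below it in C8161.

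In complex I levels spanned more than an order of magnitude, and the accessory subunit NDUFB9 was highest, at 311.77 RPKM with ATF3 and 312.39 in the control in A2058, and 203.42 and 232.92 in C8161. NDUFA5, an accessory subunit of the matrix arm, was lowest at 7.59 and 7.9 RPKM in A2058 and 3.95 and 3.56 in C8161. The catalytic β-subunit of ATP synthase, ATP5F1B, was the highest of all members in A2058 (561.35 and 556.55 RPKM, ATF3 then control) and the highest of complex V in C8161 (430.09 and 456.44).

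In complex II the iron-sulfur subunit SDHB was highest in every column and the membrane anchor SDHC lowest. In complex III UQCRH, the hinge protein, led in A2058 (446.58 with ATF3 and 455.74 in the control), while cytochrome c1 (CYC1) was highest in C8161 control at 251.62 RPKM, against 220.18 for UQCRH. In complex IV the regulatory subunit COX4I1 led in A2058 (396.72 and 385.16 RPKM) and COX7C in C8161 (436.1 and 500.58). The order of levels was otherwise similar between lines: over the 78 members at 1 RPKM or more in every column, Spearman's rho between the 2 control columns was 0.87, a description across genes that share transcript length and sequence in both columns. CYCS was at 60.71 RPKM with ATF3 and 62.7 in the control in A2058, and at 52.58 and 54.14 in C8161.

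Isoforms known from muscle or testis were near 0. COX7A1, COX6B2 and COX8C, as well as the ATP5MG relative ATP5MGL, stayed under 1 RPKM in every column, at most 0.44 RPKM (COX6B2 in A2058 with ATF3). UQCRHL, an intronless copy of UQCRH, was at 0 with ATF3 and 0.42 RPKM in the control in A2058, and at 1.04 and 0.53 in C8161, and since reads of such a copy are hard to tell from those of UQCRH its values are uncertain. The ubiquitous partners were high: COX8A, for example, was at 340.01 and 342.58 RPKM in A2058 and 245.39 and 273.36 in C8161, with ATF3 first.

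Among families expressed from several genes, the make-up differed between the lines. COX7A2 supplied 74.8% of the COX7A family's RPKM in A2058 control and 55.5% in C8161 control, and COX7A2L, which is known to help complex III join complex IV in supercomplexes, 25.2% and 44.4%. With ATF3 the COX7A2L share was 27.8% in A2058 and 49.4% in C8161, above the control in both lines. The 3 genes ATP5MC1, ATP5MC2 and ATP5MC3 encode the same mature c-ring subunit of ATP synthase with different import signals. ATP5MC1 led in A2058 control with 44.4%, against 36.3% for ATP5MC2 and 19.3% for ATP5MC3. In C8161 control ATP5MC2 led with 51.9%, against 33.7% and 14.4%. With ATF3 the ATP5MC2 share was 38.2% in A2058 and 55.3% in C8161, above the control in both lines.

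In C8161 most members were slightly lower with ATF3 than in the control. Of 79 members compared, 59 had a log2 ratio below 0 and 20 above, against 47.3% of all 10941 genes below 0. The median was -0.09, with the middle 50% of the members between -0.19 and 0.00, against 0.01 over all genes. Past 1.2-fold, 7 members were lower (2.71% of all genes were) and 1 was higher (2.19%), that 1 being UQCRHL at its low level. The 7 were NDUFS7, NDUFB7, NDUFS8, NDUFA7 and NDUFA13 of complex I, UQCR10 of complex III and ATP5F1D of complex V. The members' transcripts were short, with a median of 1098 bases against 3321 for all genes, and no depth is known for these columns.

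By complex, 26 of 36 members of complex I were below 0 (median -0.11), 7 of 10 of complex III (-0.14), 10 of 11 of complex IV (-0.16) and 13 of 17 of complex V (-0.04). Complex II had 2 of 4 below 0, with a median of 0.01. In complex IV, COX7A2L at 0.05 was the single member above 0, and COX7A2 was lowest at -0.23, from 121.37 RPKM in the control to 103.26 with ATF3.

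**Figure D2:**
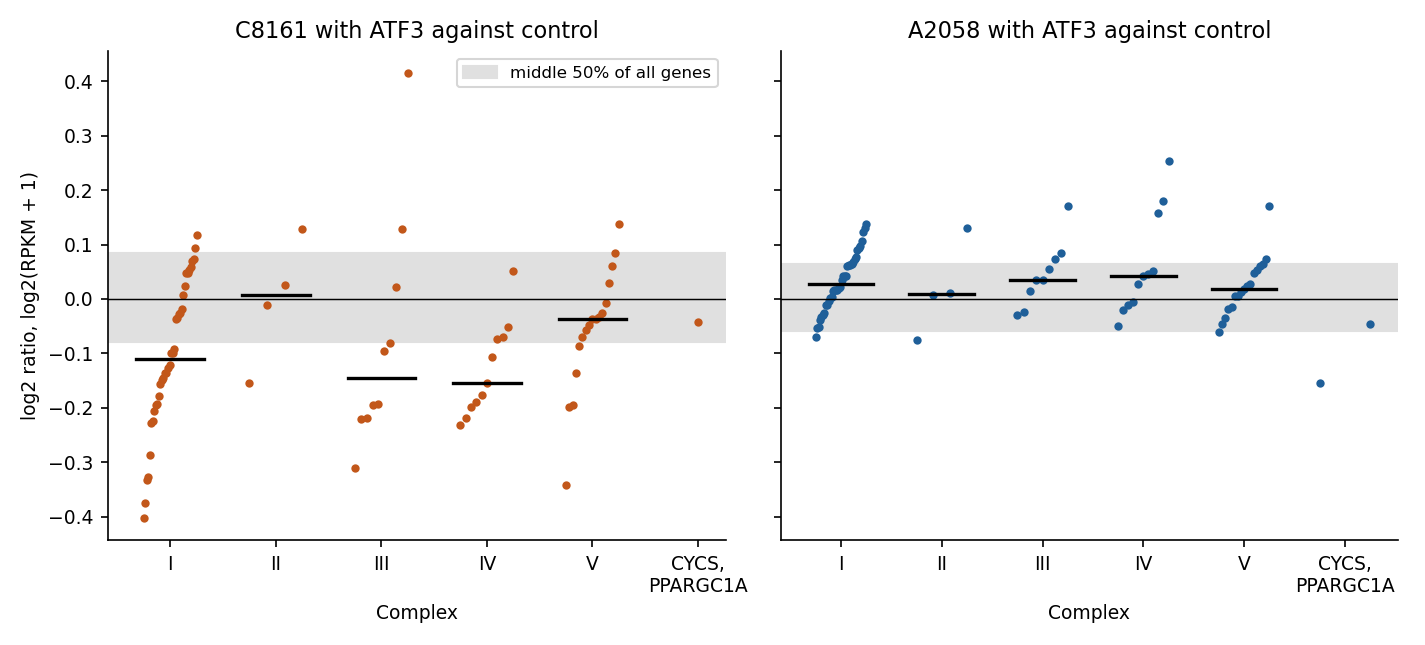
Log2 ratio of each member with ATF3 against control (vertical axis, log2(RPKM + 1)), by complex, in C8161 (left) and A2058 (right); black bars are medians and the grey band holds the middle 50% of all genes. In C8161 the medians of complexes I, III and IV lie below the band, and in A2058 the medians of complexes I to V lie inside it.

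The lowest ratio belonged to NDUFS7, a core iron-sulfur subunit on the path of electrons to ubiquinone (chr19:1383907-1395584, GRCh38.p14). Its RPKM was 47.86 with ATF3 and 63.58 in the control in C8161, a log2 ratio of -0.40 and 1.33-fold lower, and 36.97 and 33.5 in A2058, a log2 ratio of 0.14. Its transcript has a GC content of 66.5%. NDUFB7, an accessory subunit, was at 83.87 with ATF3 and 109.1 RPKM in the control in C8161 (-0.38) and at 172.82 and 165.32 in A2058 (0.06). Both were thus lower in C8161 and higher in A2058.

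ATP5F1D, the δ-subunit of the central stalk of ATP synthase, followed with 73.19 RPKM with ATF3 and 93.02 in the control in C8161 (-0.34). NDUFS8, another core iron-sulfur subunit, was at 71.84 and 90.69 RPKM (-0.33). NDUFA7 was at 36.61 and 46.16 RPKM (-0.33), but 73.7% of the 50-base stretches of its transcript also occur in another gene, so its level is uncertain. UQCR10, a small subunit of complex III, was at 50.65 and 63.05 RPKM (-0.31). NDUFA13, also known as GRIM-19, was at 110.39 and 134.8 RPKM (-0.29), and 41.3% of its stretches also occur in another gene. Of these, ATP5F1D and NDUFS8 were also slightly below 0 in A2058, at -0.05 and -0.01.

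Few members were higher in C8161 with ATF3, and by small amounts. ATP5MC2 was at 273.92 RPKM with ATF3 and 248.95 in the control (0.14), and at 190.29 and 168.95 in A2058 (0.17). UQCRB, the ubiquinone-binding protein of complex III, was at 38.76 and 35.36 RPKM (0.13), SDHC at 28.3 and 25.8 (0.13) and NDUFA5 at 3.95 and 3.56 (0.12). NDUFB5 (0.09), ATP5ME (0.08), NDUFS5 (0.07) and NDUFB10 (0.07) followed. The ratio was above 0 in A2058 for all of these except NDUFA5 and NDUFB10, at -0.05 and -0.07.

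GC content moved with the ratio in C8161. Across genes, Spearman's rho of the log2 ratio with the GC content of the transcript was -0.42 over 79 members and -0.44 over 10861 genes, as descriptions across genes that share 1 pair of columns. In A2058 it was -0.04 over 79 members and 0.10 over 11758 genes. The members with the 8 lowest ratios in C8161 had a median GC content of 62.4%, and those with the 8 highest 44.8%. All members together, with a median of 48.2%, were close to all genes at 48.4%.

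With the trends of GC content and length over all genes removed, the members' median in C8161 was -0.05, against 0.02 over all genes. In that setting 54 of 79 members were below 0, against 43.7% of all genes, and 1 member instead of 7 was lower past 1.2-fold. That 1 was UQCR10, at -0.28, whose GC content is 47.5%. NDUFS7 then stood at -0.22, NDUFB7 at -0.18, NDUFS8 at -0.17 and ATP5F1D at -0.12. The medians of the complexes became -0.05 for I, -0.09 for III, -0.08 for IV and -0.03 for V.

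**Figure D3:**
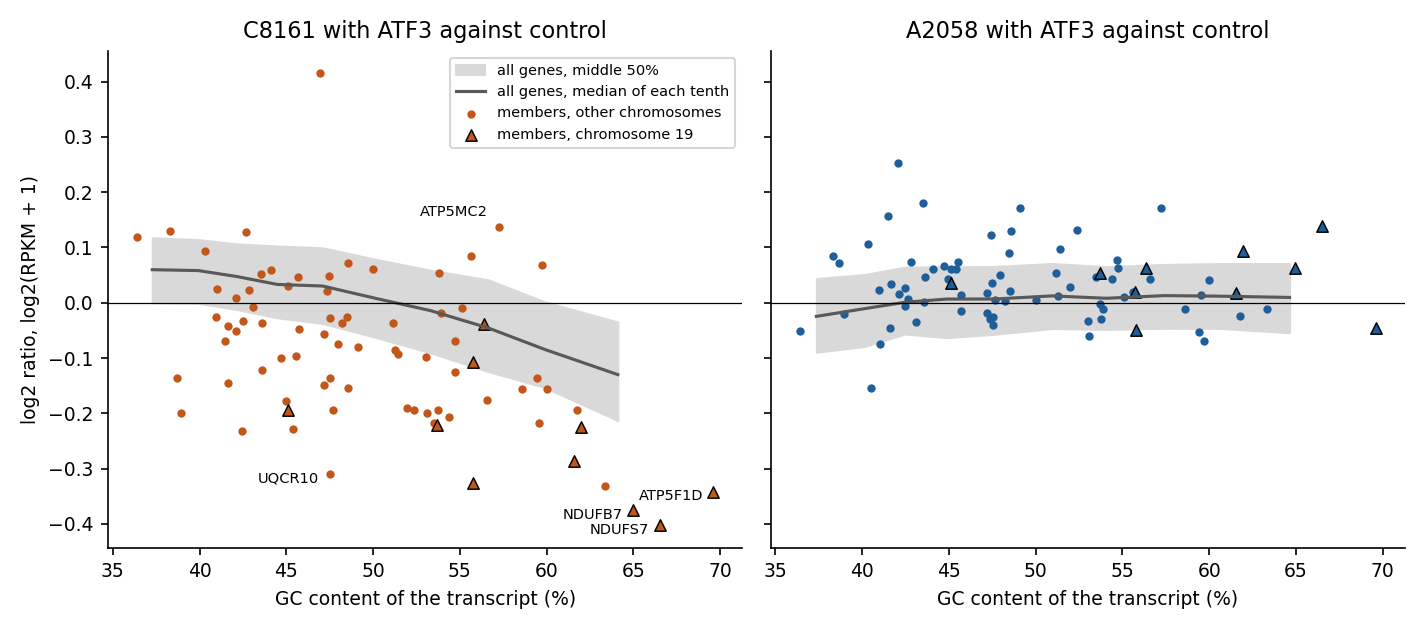
Log2 ratio with ATF3 against control (vertical axis) by GC content of the transcript in percent (horizontal axis), in C8161 (left) and A2058 (right); points are members, triangles those on chromosome 19, and the grey line and band are the median and middle 50% of all genes in 10 equal groups of GC content. In C8161 the line runs from 0.06 in the group of lowest GC content to -0.13 in that of highest, and NDUFS7, NDUFB7 and ATP5F1D lie below it at the high end.

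Members on chromosome 19, a chromosome rich in GC, were lower in C8161 as a group. All 10 compared were below 0, 5 of them past 1.2-fold, with a median of -0.26 and a median GC content of 59.0%. The 701 genes of chromosome 19 compared had a median of -0.06 and a GC content of 59.6%, with 68.5% below 0 and 8.13% lower past 1.2-fold. After removal of the trends the medians were -0.16 for the 10 members and 0.00 for the 701 genes. Without chromosome 19 the members' median was -0.07 over 69 members. Of these, 2 were lower past 1.2-fold (2.90%), close to the 2.71% of all genes. What lies behind the trend with GC content was not tested.

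In A2058 the members differed little between the arms. Of 79 compared, 55 had a log2 ratio above 0 with ATF3 and 24 below, against 51.3% of all 11883 genes above 0, and the median was 0.02 against 0.00 over all genes. Without the trends of GC content and length 48 were above 0, against 53.6% of all genes, and after quantile normalization 34 instead of 24 were below 0, with a median of 0.01. Past 1.2-fold, 0 members were higher (2.02% of all genes were) and 0 lower (1.51%). By complex the medians were 0.03 for I, 0.01 for II, 0.04 for III, 0.04 for IV and 0.02 for V.

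The highest ratio in A2058 was that of COX6C, a small subunit of complex IV, at 120.93 RPKM with ATF3 and 101.33 in the control (0.25, 1.19-fold). COX7A2L was at 63.7 and 56.09 RPKM (0.18), UQCRQ, a small subunit of complex III, at 73.08 and 64.79 (0.17) and COX7B at 127.48 and 114.23 (0.16). In C8161 COX6C, UQCRQ and COX7B were slightly below 0 instead, at -0.05, -0.08 and -0.07, and COX7A2L was at 0.05. NDUFA2 (0.13) and SDHB (0.13), after ATP5MC2 (0.17) and NDUFS7 (0.14), closed the 8 highest in A2058, and both were below 0 in C8161, at -0.19 and -0.15.

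The lowest member in A2058 was PPARGC1A, at 5.19 RPKM with ATF3 and 5.89 in the control (-0.15). SDHD was at 69.33 and 73.08 RPKM (-0.07), NDUFB10 at 145.57 and 152.77 (-0.07) and ATP5PF, the coupling factor 6 of ATP synthase, at 90.09 and 93.97 (-0.06). NDUFV1 (-0.05), COX6B1 (-0.05) and CYCS (-0.05) were close to them. From the read steps of these columns, the approximate counting SE of a member's log2 ratio had a median of 0.042, and it covers counting error only. Its reads assume the length of each gene's principal transcript, such as 3665 bases for ATP5F1E. For a shorter transcript the SE would be larger. For 70 of the 79 members the ratio was smaller than 2 such SE. The 9 beyond it were ATP5F1E, ATP5MC2, COX6C, COX7A2L, COX7B, NDUFA10, NDUFA11, SDHB and UQCRQ, all above 0, and NDUFA11 shares 63.9% of its sequence with another gene. The SE is set on reads without the added 1 RPKM, so members close to 2 SE can fall on either side. PPARGC1A (-0.15, SE 0.080) and UQCRB (0.09, SE 0.043) were just within it. At a pseudocount of 0.1 RPKM PPARGC1A was at -0.18, beyond 2 SE and below 0. The share of all genes beyond 2 such SE was not computed, so the 9 cannot be set against it.

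Set side by side, 41 of 78 members compared in both lines were below 0 in C8161 and above 0 in A2058, against 25.4% of the 10331 genes compared in both. This count follows from the counts in each line and adds nothing to them. Another 18 were below 0 in both (21.8% of all genes), 14 above 0 in both (25.6%), and 5 above 0 in C8161 and below in A2058 (26.1%). Since no line has a spread for its ratio, the difference between the lines was not tested.

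The lines themselves differed more than the arms of either line. With control C8161 against control A2058, 50 of 79 members were below 0 (59.3% of all genes were), with a median of -0.25 against -0.19 over 12372 genes. Past 2-fold, 7 members were lower (20.7% of all genes) and 1 was higher (9.36%), so fewer of the members than of all genes differed by that much. By complex the medians were -0.29 for I, -0.26 for II, -0.02 for III, -0.26 for IV and -0.25 for V. Without the trends of GC content and length they were -0.15, -0.22, -0.03, -0.01 and -0.18 in that order, against -0.14 over all genes. Centring on the median of all genes moved the members' median to -0.07, and the values as deposited are given below.

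PPARGC1A showed the largest difference of all members. It was at 5.19 RPKM in A2058 with ATF3 and 5.89 in A2058 control, and at 0.18 in C8161 with ATF3 and 0.19 in C8161 control, 31.0-fold lower in the C8161 control column. The log2 ratio of log2(RPKM + 1) understates this, at -2.53. These levels come from single columns without a replicate spread. The gene spans chr4:23792021-24472905, and the 13 other genes compared within 5 Mb of it had a median log2 ratio of 0.25, above 0. MITF was likewise high in A2058, at 51.86 RPKM with ATF3 and 54.02 in the control, and low in C8161, at 1.02 and 0.95. The part of this difference in lineage markers in the PPARGC1A values was not tested.

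Most subunits were within 2-fold of each other in the 2 lines. Members lower past 2-fold included ATP5MF, NDUFB2, NDUFB10, UQCRH and SDHC. ATP5MF, a subunit f of the membrane part of ATP synthase (chr7:99458195-99466167), was at 128.56 RPKM in C8161 control and 406.91 in A2058 control, 3.17-fold lower (log2 ratio -1.65), and 39.1% of its sequence occurs in another gene. NDUFB2 on the same chromosome was at 56.39 and 167.92 RPKM (-1.56). NDUFB10 on chromosome 16 was at 56.67 and 152.77 RPKM (-1.41), and SDHC at 25.8 and 52.78 (2.05-fold lower).

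Neighbouring genes were lower beside several of these. The median log2 ratio of the other genes compared within 5 Mb was -1.48 around ATP5MF (104 genes), -0.80 around NDUFB2 (43), -0.89 around NDUFB10 (136) and -0.70 around SDHC (71). It was -1.14 around NDUFA5 on chromosome 7 (19 genes), which itself was at 3.56 and 7.9 RPKM (-0.96). Around UQCRH, at 220.18 and 455.74 RPKM (-1.05), it was -0.02 (72 genes). Over all 79 members Spearman's rho between the ratio and that of the neighbours was 0.44, as a description, since members near each other share neighbours. Gene copy number was not measured here.

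NDUFA9, an accessory subunit of complex I (chr12:4649114-4694317), was the 1 member higher past 2-fold in C8161, at 99.12 RPKM in the control against 43.66 in A2058 control (1.16). Its neighbours had a median of 0.30. NDUFS7 followed at 63.58 against 33.5 RPKM (0.90), with neighbours at -0.25. NDUFB5 was at 101.23 against 55.48 RPKM (0.86), with neighbours at 0.64, and COX7A2L at 97.15 against 56.09 (0.78), with neighbours at -0.21. UQCRB (0.74), NDUFS4 (0.65), COX6C (0.62) and ATP5MC2 (0.56) were also higher.

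The same comparison in the columns with ATF3 uses other libraries of the same lines. There 58 of 80 members were below 0 (58.5% of all genes were), 9 were lower past 2-fold (21.4% of all genes were) and 2 higher (9.92%), with a median of -0.37 against -0.18 over all genes. Of 79 members compared in both pairs of columns, 71 had the same sign in both, as did 93.6% of 12260 genes. NDUFS7 had the largest gap between the 2 pairs, 0.54, with 0.90 in the controls and 0.36 with ATF3, and the median gap was 0.14. Beyond 2-fold with ATF3, but not in the controls, were NDUFA11 (-1.13), NDUFA13 (-1.11), NDUFB7 (-1.03) and COX5B (-1.01) on the lower side. Without the trends of GC content and length they stood at -0.38, -0.47, -0.09 and -0.82 in that order, each within 2-fold. Spearman's rho of the ratio with GC content was -0.37 over 80 members and -0.33 over 12255 genes with ATF3, as descriptions. In the controls it was -0.30 over 79 members and -0.27 over 12239 genes.

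**Figure D4:**
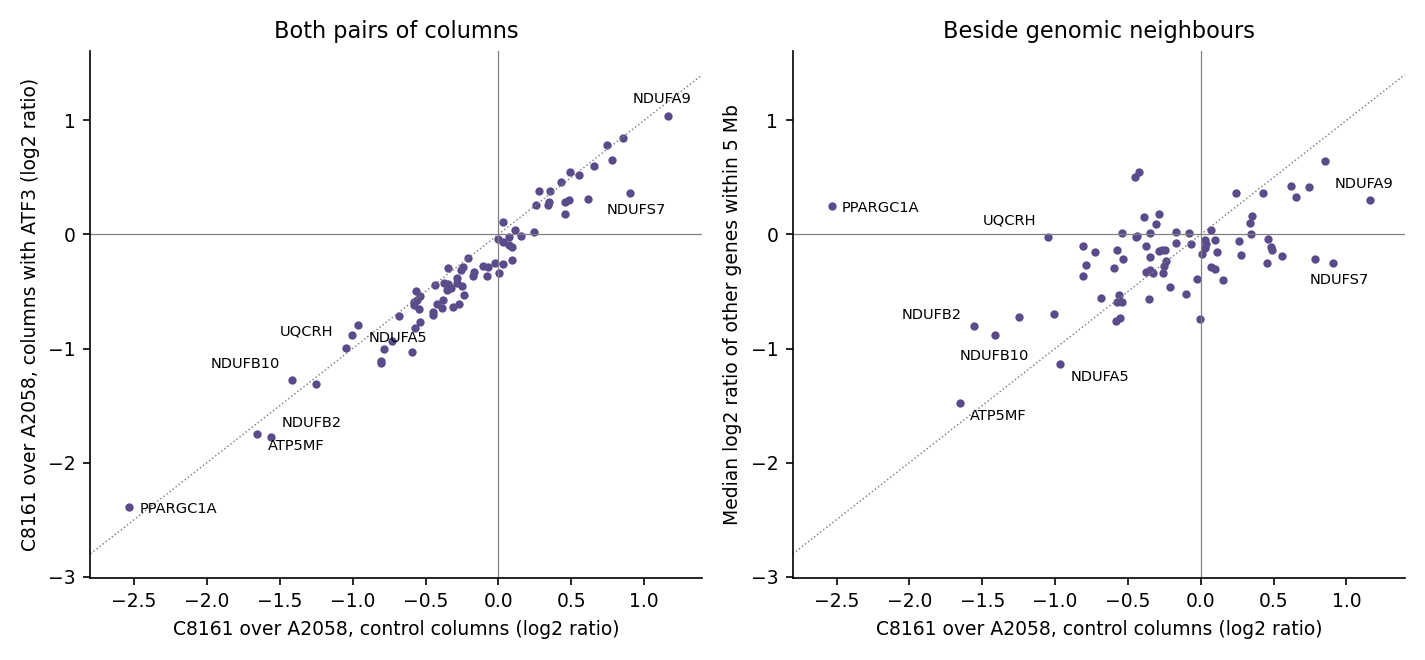
Log2 ratio of C8161 over A2058 for each member in the control columns (horizontal axes) against the same ratio in the columns with ATF3 (left) and against the median of other genes within 5 Mb (right); dotted lines mark equality. The ratios of both pairs lie near the line of equality, while PPARGC1A and UQCRH lie far from their neighbours' median and ATP5MF close to it.

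Genes that build and control the chain were read from fixed lists. Of 53 assembly factors, which insert cofactors and join subunits, 36 were below 0 in C8161 with ATF3 (median -0.05) and 24 in A2058 (0.01). Among all genes, 47.3% were below 0 in C8161 and 48.1% in A2058. The copper chaperone SCO2 was lowest in C8161, at 22.41 RPKM with ATF3 and 30.19 in the control (-0.41), and COX20 highest, at 16.49 and 13.93 (0.23). In A2058 SCO2 was at 31.59 and 27.87 RPKM (0.17). Of 7 subunits and regulators that the rule leaves out, 5 were below 0 in C8161, with a median of -0.09.

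Of the regulators of mitochondrial transcription and biogenesis, 15 of 17 were below 0 in C8161 with ATF3 (median -0.06) and 11 of 16 in A2058 (-0.02). Among all genes, 47.3% were below 0 in C8161 and 48.1% in A2058. Lower past 1.2-fold were 1 regulator in C8161 (2.71% of all genes were) and 0 in A2058 (1.51%). POLRMT, the mitochondrial RNA polymerase, was lowest in C8161, at 19.24 RPKM with ATF3 and 24.55 in the control (-0.34), and at 46.47 and 46.42 in A2058 (0.00). ESRRA, estrogen-related receptor α and a partner of PPARGC1A, was at 14.16 and 16.22 RPKM in C8161 and 48.68 and 49.42 in A2058. TFAM, which packages mitochondrial DNA, was at 67.09 and 60.82 RPKM in C8161 (0.14) and 49.65 and 52.04 in A2058 (-0.07).

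Between the control columns, 3 of 17 regulators were lower in C8161 past 2-fold: ESRRA (-1.55), MTERF1 (-1.35) and SSBP1 (-1.04). This share, 17.6%, is close to the 20.7% of all genes. NRF1 was at 5.6 RPKM in C8161 control and 8.12 in A2058 control (-0.47), and PPARGC1B, a relative of PPARGC1A, at 1.64 and 3 RPKM (-0.60). GABPA, the DNA-binding part of GABP, was at 6.17 and 5.42 RPKM (0.16), and YY1 at 41.94 and 46.47 (-0.14). The list's median was -0.46, against -0.19 over all genes, and -0.21 against -0.14 without the trends of GC content and length.

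Ribosomal genes, which are short and abundant like the subunits, gave ratios close to theirs in C8161. Of 77 mitochondrial ribosomal proteins 57 were below 0, with a median of -0.09, and of 79 cytosolic ribosomal proteins 61, with a median of -0.10. The members' median was -0.09, and 47.3% of all genes were below 0. Removal of the trends gave -0.04, -0.06 and -0.05. In A2058 the medians were 0.03, 0.03 and 0.02. Nothing particular to the respiratory chain can be read from its median in either line.

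**Figure D5:**
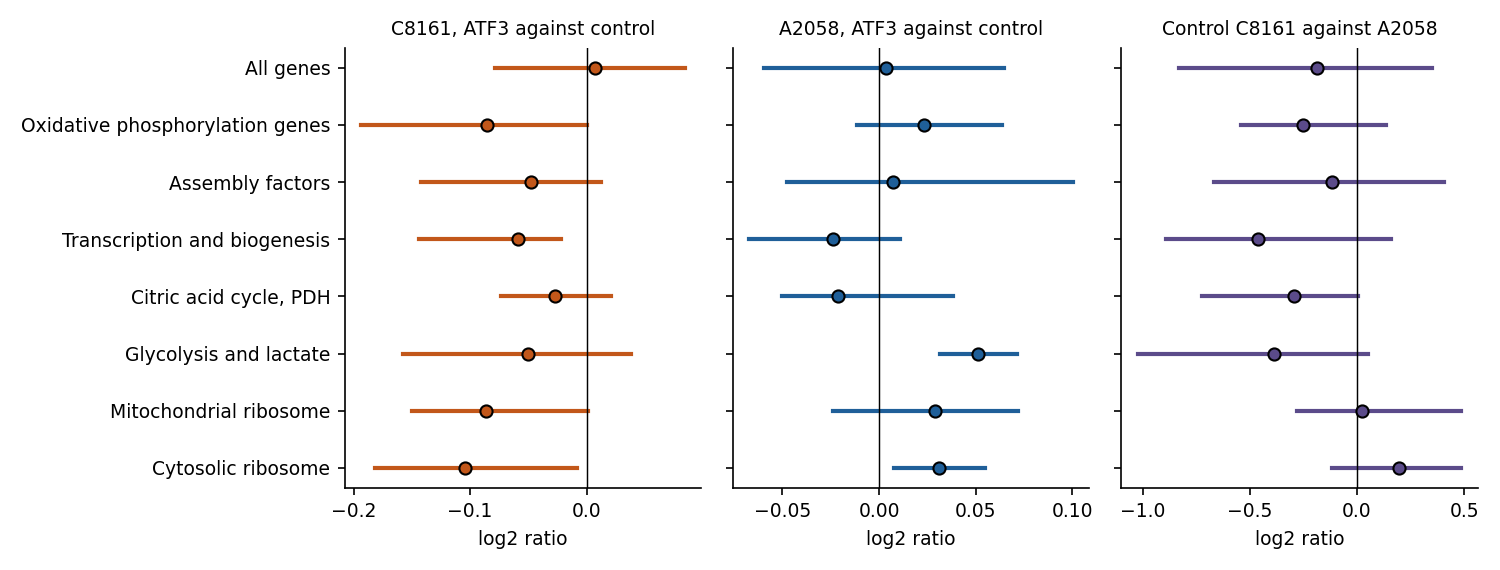
Median (points) and middle 50% (bars) of the log2 ratios of gene lists in 3 comparisons, with a separate horizontal scale for each. In C8161 with ATF3 the oxidative phosphorylation genes and both ribosomal lists have medians between -0.10 and -0.09, while all genes have a median of 0.01.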

How the data were processed

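RNA-seq of A2058 and C8161 cells with retroviral ATF3 or a neomycin control was used. The authors deposited RPKM values, per the file headers: 1 column per A2058 library and 1 column per C8161 arm, whose header marks it as covering all libraries of that arm. Bowtie2, RSEM and the build hg38 come from the submitters' processing notes. For versions, annotation, strand, filters and the way the C8161 libraries were combined: not given in the sources used here.

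Entrez identifiers were matched to RefSeq genes of GRCh38.p14 (18156 of 18478 had a symbol). The members and gene lists were chosen with earlier results of these data known. A log2 ratio is the difference of log2(RPKM + 1) for genes that reached 1 RPKM in either column. GC content and length came from the principal GENCODE 29 transcript, for all 84 members. Their trends were fitted over all genes compared by least squares on cubic splines with 5 knots. The calculation was checked on simulated data. The planned limma test needed values per library and could not be run. For each comparison the members named are the 8 highest and 8 lowest ratios at a mean of at least 2 RPKM, the highest and lowest level per complex, CYC1, CYCS, PPARGC1A and the isoform families. Up to 3 genes of each list with the largest ratios in either direction were added, in C8161 and between the control columns. The result for 1 gene is not reported here. A few further genes, such as the markers and those with a listed motif, were named after their values were seen. The alternatives were the pseudocount, the minimum level, centring, quantile normalization and removal of the trends. Software was Python 3.11.15, pandas 2.3.3, numpy 2.4.6, scipy 1.17.1 and matplotlib 3.10.9.

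Low values of the A2058 columns fell best on steps of whole reads equivalent to some 18550000 (ATF3) and 18700000 (control) reads. The match was weak, with a coherence of 0.32 and 0.31, against 0.19 and 0.24 at the next best read number. The depth behind the counting SE is thus approximate. No step was found for C8161 inside the range searched, so its depth is unknown.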

Additional observations from a re-analysis of the deposited data

Results flagged for a closer look

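Some values lay on opposite sides of 0 in the 2 lines, by at least 0.1 on the log2 scale in each line for single genes, and these differences between lines were not tested. With ATF3 against control, NDUFS7 had a log2 ratio of 0.14 in A2058 and -0.40 in C8161, a gap of 0.54. NDUFA2 was at 0.13 and -0.19 (gap 0.32) and SDHB at 0.13 and -0.15 (gap 0.28). In A2058 the ratios of NDUFS7 and NDUFA2 were smaller than 2 approximate counting SE, and that of SDHB was larger. Without the trends of GC content and length, the C8161 ratios of NDUFS7, NDUFA2 and SDHB were -0.22, -0.13 and -0.13. The median of all members was 0.02 in A2058 and -0.09 in C8161, a gap of 0.11.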

How the results depend on the processing

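No paired analysis was possible because the C8161 columns combine the libraries of an arm and A2058 has 1 library per arm, and leaving out replicates could not be run for the same reason. In C8161, the 7 members lower past 1.2-fold became 1 without the GC and length trends, 2 with the trends of the longest transcript, and 2 on chromosomes other than 19. The 1 member higher past 1.2-fold became 0 at a minimum of 5 RPKM. In A2058, the 0 lower past 1.2-fold became 1 with no minimum, where UQCRHL enters. Between the control columns, centring moved the median of all genes from -0.19 to 0 and quantile normalization to 0.05. The members' median of -0.25 became -0.068 when centred, -0.15 without the GC and length trends and -0.16 without those of the longest transcript, and the 1 member higher past 2-fold became 3, 2 and 2. Reversed in sign there were CYC1, at -0.10 as deposited, 0.082 when centred and 0.40 without the trends, and the list of 7 genes outside the rule, at 0.11 and -0.085 without the trends. Of the values for comparisons as a whole, 97 of the alternatives stayed and 11 moved. Staying means within 0.05 on the log2 scale, or 1.5 times for a count. Of the values for single genes, complexes and lists, 301 stayed, 70 moved and 3 reversed. The 0.05 is larger than the members' median in A2058, 0.02. The change there from 24 to 34 members below 0 after quantile normalization also counts as staying. For differences this small the tally therefore says little. The trends of the longest transcript, the members outside chromosome 19 and those sharing under 50% of their sequence were chosen after seeing the data. An unknown depth limits C8161, and counting error limits ratios as small as most of those in A2058.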

Other observations

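Carbon metabolism upstream of the chain was read from 2 further lists. Of 22 genes of glycolysis and lactate handling, 19 were above 0 in A2058 with ATF3 (51.3% of all genes were), with a median log2 ratio of 0.05. Past 1.2-fold, 0 were higher (2.02% of all genes) and 0 lower (1.51%). The glucose transporter SLC2A3 was at 39.11 RPKM with ATF3 and 35.07 in the control (0.15) and the neuronal enolase ENO2 at 104.64 and 94.19 (0.15). In C8161 8 of 21 were above 0 (52.0% of all genes were), with a median of -0.05. Without the trends of GC content and length the list's median was -0.003 in C8161, against 0.02 over all genes. In A2058 it was then 0.05, against 0.01. In C8161 SLC2A3 was at 19.54 and 17.03 RPKM (0.19), while the lactate exporter SLC16A3 was at 108.24 and 131.89 (-0.28). SLC2A3 and ENO2 (0.16 in C8161) were thus above 0 in both lines.

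Between the control columns 7 of the 22 were lower in C8161 past 2-fold, against 20.7% of all genes, and the median was -0.39, or -0.23 without the trends of GC content and length. ALDOC, the brain form of aldolase, was at 0.27 RPKM in C8161 control and 40.46 in A2058 control, and hexokinase 2 (HK2) at 12.08 and 53.69. GAPDH was higher, at 6272.81 RPKM against 3811.31. Of 19 genes of the citric acid cycle and pyruvate dehydrogenase, 14 were below 0 in C8161 control against A2058 control (59.3% of all genes were), with a median of -0.29 against -0.19 over all genes. DLD, on chromosome 7 like ATP5MF and NDUFB2, was at 16.92 and 50.26 RPKM (-1.52), and SUCLG2 was higher, at 39.32 against 17.87 (1.10). With ATF3, the median of this list was -0.03 in C8161 and -0.02 in A2058.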
